A study of Mus musculus with 2 samples.

Results

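The 5 genes described here, Krt7, Krt8, Krt18, Krt19 and Krt14, are keratins of simple and basal epithelia, and they were taken from the 33696 measured features by their symbols. Each symbol matched 1 feature, ENSMUSG00000023039 for Krt7, ENSMUSG00000049382 for Krt8, ENSMUSG00000023043 for Krt18, ENSMUSG00000020911 for Krt19 and ENSMUSG00000045545 for Krt14. They were measured in cells of KPCY 6419c5, a line from a mouse pancreatic ductal adenocarcinoma, in 1 droplet library that pooled clones 76 and 84 in equal parts after 19 days of editing. Per the labels, all cells of the pool had been transfected with Cas12a-ABE, an adenine base editor built on the nuclease Cas12a that the study uses to record lineage, and were then sorted singly, so each clone descends from 1 cell. The age and strain of the source animal were not given in the sources used here. A further pool, of clones 1, 32, 33, 52 and 76, was not analysed here.

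Cells carried no clone label, and so were placed in 2 groups by genes that are not keratins. A cells had at least 2 unique molecular identifiers (UMIs, each counting 1 captured transcript) of Pde10a, Plcb1, Galnt18, Arhgap15 and Ceacam1, and at least 3 times as many of these as of the B genes. B cells had at least 2 UMIs of S100a7a, Rgs20, Hs6st2, Ccbe1, Ctse and Mal, and at least 3 times as many of these as of the A genes. These marker genes were themselves chosen on this library, and which clone either group holds is not known. Of 22178 barcodes, 21361 passed the cell filter, and of these 7816 were A cells and 8936 were B cells. The 4609 other barcodes (21.6%) were in neither group. A and B cells had medians of 4699.5 and 5440.5 UMIs, and median mitochondrial shares of 3.19 and 1.89%. Cells of 1 library are not replicates, so no test was made. Intervals are exact, at 95%, and cover counting error only.

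Keratins are the intermediate filament proteins of epithelial cells. A filament is built from pairs of a type I and a type II keratin, so a cell needs both kinds. Krt8 (type II) and Krt18 (type I) are the pair of simple epithelia, Krt7 (type II) and Krt19 (type I) join them in ducts such as those of the pancreas, and Krt14 (type I) pairs with Krt5 in the basal layer of stratified epithelia. Krt18 is a type I gene that lies beside Krt8, among the type II genes.

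Upstream sequences are shown for Krt7, Krt8 and Krt18, the 3 members on chromosome 15. They were chosen because the 3 genes were higher in the same cells and because their levels went together across B cells. Krt19 shared both traits, but the source of these sequences held none for it. Each run holds 250 bases before and 50 after the start that RefSeq gives (build GRCm38.p6, whereas the deposited counts used GRCm39 per the submitters' processing notes), written 5′ to 3′ on the gene's own strand. Capitals mark matches on either strand to any of 5 motifs. The TATA box was searched as TATAAA, where the general transcription machinery can assemble. The site of AP-1, a stress-responsive factor, was searched as TGANTCA. The GC box, bound by Sp1-like factors, was searched as GGGCGG. The box bound by the factor NF-Y was searched by the letters CCAAT. The half-site of nuclear receptors was searched as AGGTCA.
Krt7 (chr15:101412153-101412452, plus strand): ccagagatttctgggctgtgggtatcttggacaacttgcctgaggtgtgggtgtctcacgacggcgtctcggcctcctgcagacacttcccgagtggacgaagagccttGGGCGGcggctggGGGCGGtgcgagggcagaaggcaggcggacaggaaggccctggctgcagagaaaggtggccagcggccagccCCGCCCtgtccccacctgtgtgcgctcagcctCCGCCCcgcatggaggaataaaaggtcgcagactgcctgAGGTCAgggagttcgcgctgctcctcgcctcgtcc
Krt8 (chr15:102004293-102004592, minus strand): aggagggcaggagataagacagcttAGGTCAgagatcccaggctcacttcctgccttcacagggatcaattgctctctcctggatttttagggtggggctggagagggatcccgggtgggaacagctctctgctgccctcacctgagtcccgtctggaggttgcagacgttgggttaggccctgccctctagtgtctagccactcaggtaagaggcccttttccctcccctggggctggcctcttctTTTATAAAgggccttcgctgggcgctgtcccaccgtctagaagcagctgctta
Krt18 (chr15:102027966-102028265, plus strand): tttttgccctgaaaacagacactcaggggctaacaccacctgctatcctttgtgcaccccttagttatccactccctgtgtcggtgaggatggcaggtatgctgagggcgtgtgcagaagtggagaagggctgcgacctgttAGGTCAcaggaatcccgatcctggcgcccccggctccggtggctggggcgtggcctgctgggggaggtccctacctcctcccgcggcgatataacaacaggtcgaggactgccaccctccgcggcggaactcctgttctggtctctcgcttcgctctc

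Krt7 had 4 matches to the GC box, a motif found in 35.7% of the 32851 RefSeq windows of this length. Krt8 had overlapping matches to the TATA box on both strands, at bases 248 to 255, and 13.6% of all windows held that motif. AGGTCA was present in all 3 windows, against 16.3% of all windows, and was added to the search after the sequences were seen. No AP-1 (7.81% of windows) or CCAAT (37.4%) match was in the 3 windows. A match describes letters only. Of the 5 members, 4 had a window in the table, and that of Krt14 starts at a short transcript within the gene and is not shown.

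All 5 keratins were higher in B cells, and together they took 2675 CPM (UMIs of a gene per 1000000 UMIs of the group) in A cells and 7529 CPM in B cells, a ratio of 2.81 (interval 2.795 to 2.83). The size of the difference fell into 2 classes. Krt7 and Krt14 were 25.4 and 37.9 times as high in B, whereas Krt8, Krt18 and Krt19 were present in both groups and were 1.63 to 2.79 times as high in B. At least a 2-fold excess in B was shown by 4 of the 5 members, all but Krt8, and by 6.68% of the 3908 genes that reached 50 CPM in A or in B. Krt14 reached that level only in B, and so had to count as higher there, which leaves 3 of the other 4. Krt7 barely reached it in A, with 53.4 CPM, and had 41.2 CPM in the A cells without any UMI of the B genes. Its place in the count is thus nearly forced as well. The count was 3 of 5 among cells with a mitochondrial share under 2%, where Krt18 had a log2 ratio of 0.68, and among those of 4 to 15%, where Krt19 had 0.81. No member was 2-fold higher in A, where 7.6% of these genes were. The median gene stood at -0.11 on the log2 scale of B over A, so the keratin ratios are slightly larger when set against it.

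**Figure D1:**
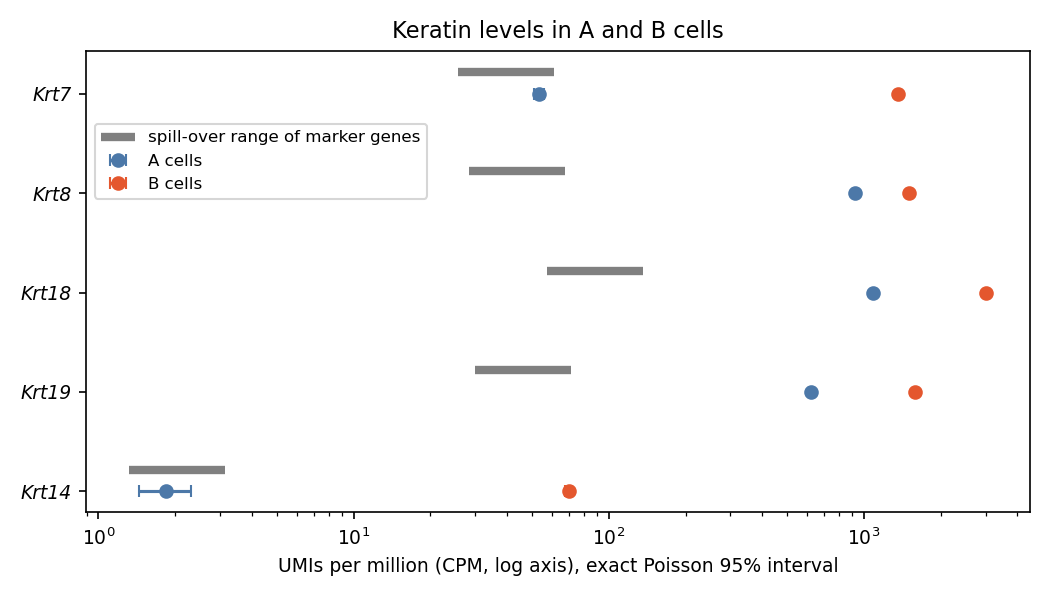
Level of each keratin in A cells (blue) and B cells (orange), in CPM on a log axis, with exact 95% Poisson intervals; grey bars give the B level times 1.89 to 4.50%, the range over 11 marker genes of what was read in the opposite group. The A levels of Krt7 and Krt14 lie within their grey bars, and those of Krt8, Krt18 and Krt19 lie above them.

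Krt8, the type II partner common to simple epithelia, had 919 CPM (interval 909.6 to 928) in A cells and 1498 CPM (1487 to 1508) in B cells. It differed least of the 5, by 1.63-fold (1.61 to 1.65). Among cells with a mitochondrial share under 2%, its log2 ratio was only 0.048, with overlapping counting intervals. Its type I partner Krt18 had 1083 CPM (1073 to 1093) in A and 3019 CPM (3004 to 3034) in B, 2.79-fold higher (2.76 to 2.82), and was the most abundant keratin of either group. Krt19, the short type I keratin of ducts, had 618 CPM (610.5 to 626) and 1584 CPM (1574 to 1595), 2.56-fold higher in B (2.53 to 2.60).

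Krt7, the ductal type II keratin, had 53.4 CPM (51.2 to 55.7) in A cells and 1358 CPM (1348 to 1368) in B cells, a ratio of 25.4 (24.4 to 26.5). Krt14, the basal type I keratin, had 1.84 CPM (1.44 to 2.31) in A, from 74 UMIs, and 69.6 CPM (67.4 to 71.9) in B, from 3674 UMIs, a ratio of 37.9 (30.1 to 48.4). Even in B cells, Krt14 UMIs were far fewer than those of the other 4 genes. The 3′ libraries count a transcript once whatever its length, so these CPM are not divided by length, and capture can still differ between genes.

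The low A values of Krt7 and Krt14 were set beside genes that mark the opposite group. Each of the 11 marker genes was left out in turn, cells were assigned with the other 10, and the left-out gene was read in both groups. Its level in the opposite group was 1.89 to 4.50% of that in its own. The A level was 3.93% of the B level for Krt7 and 2.64% for Krt14, both inside that range. For Krt7 this rests on 1 gene, since only Rgs20 (4.50%) stood above it and the next, S100a7a, had 3.81%. Any spill-over, that is RNA of one group read in cells of the other, would lower both ratios of B over A. Its part in the A levels of Krt7 and Krt14 was not tested. Within 4 bins of depth, Krt7 stayed inside the range of the B markers of its own bin, for example 8.90% against 4.81 to 11.6% in cells of 8000 or more UMIs. Krt14 did so in 3 bins, and from 2000 to under 4000 UMIs it had 3.32%, from 11 UMIs in A, against 0.724 to 3.08%. In the 222 A cells with a mitochondrial share under 2%, Krt7 stood above the range, at 9.50% of B (152 UMIs) against 1.89 to 6.63%. These bins were compared after the values were seen. Free RNA, mixed barcodes and real low expression cannot be told apart in these A levels. Krt8, Krt18 and Krt19 in A cells were above the range of 1.89 to 4.50%, at 61.4, 35.9 and 39.0% of B.

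Within A cells, 179 barcodes held 45.9% of the Krt7 UMIs, and 1010 others held 54.1%. Krt7 had 0 UMIs in 6627 of the 7816 cells, 1 to 2 in 1010 and 3 or more in 179. In this order of classes, the median depth was 4596, 5254.5 and 7618 UMIs, and a B-marker UMI was present in 4.38, 6.63 and 45.8% of cells. The doublet caller Scrublet marked 0.407, 3.07 and 49.2%, and the Krt14 level was 0.969, 1.71 and 23.1 CPM. The 1010 cells with 1 to 2 UMIs were thus nearer to those without Krt7 than to the 179. Without Scrublet's barcodes, the ratio of B over A on the log2 scale rose from 4.67 to 5.14 for Krt7 and from 5.24 to 6.07 for Krt14. Krt7 is among the genes Scrublet reads, so its marks are not independent of Krt7. These 3 classes of A cell were chosen after the values were seen.

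Counts per cell show how far the groups overlapped. After each cell was thinned to 3000 UMIs, which left out 410 A cells and 109 B cells, Krt18 had a median of 3 UMIs in A cells (95th percentile 8) and 9 in B cells (95th percentile 16). A Krt18 UMI was found in 89.7% of A cells (interval 89.02 to 90.4%) and 99.9% of B cells. Krt8 had medians of 2 and 4 UMIs and was found in 88.3 and 96.9% of cells, and Krt19 had medians of 1 and 4 UMIs and was found in 75.1 and 95.9%. The distributions of Krt8 and Krt19 overlapped widely, whereas the 95th percentile of Krt18 in A cells lay below its median in B cells.

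Krt7 separated the groups almost fully at the level of cells. Its median was 0 UMIs in A and 4 in B, and it was found in 10.03% of A cells (9.36 to 10.7%) and 96.3% of B cells (95.9 to 96.7%). Without thinning, the shares were 15.2 and 99.1%. A Krt14 UMI was found in a minority of B cells, 14.99% (14.2 to 15.75%) after thinning and 24.6% without, and in 0.459 and 0.819% of A cells. With a mean of 0.202 UMIs per thinned B cell, a cell that expresses Krt14 can have 0 UMIs. The share of B cells that express it is thus not known. A single B cell held as many as 15 Krt14 UMIs after thinning, where 99% of B cells held 2 or fewer.

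**Figure D2:**
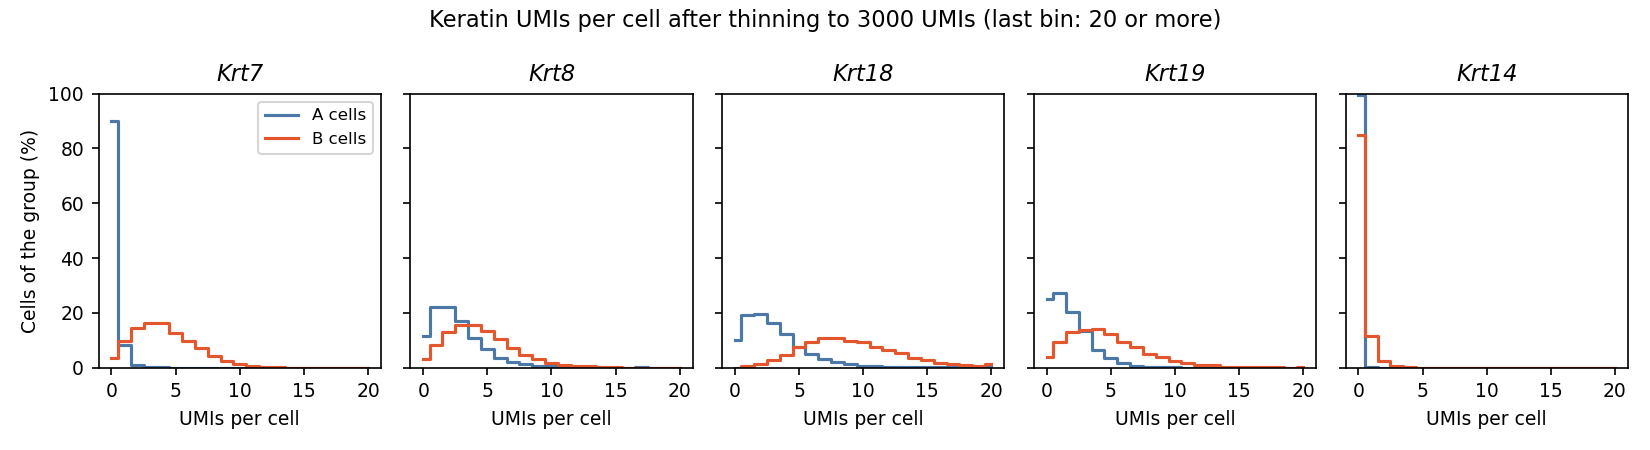
UMIs per cell of each keratin after thinning to 3000 UMIs (x axis, last bin 20 or more) against the percent of cells of the group (y axis), for A cells (blue) and B cells (orange). Krt7 is at 0 UMIs in 89.97% of A cells and 3.70% of B cells, Krt14 is at 0 in 85.01% of B cells, and the curves of Krt8 and Krt19 overlap more than those of Krt18.

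The makeup of the keratin transcripts differed between the groups mainly on the type II side. In A cells Krt8 made up 94.5% of the type II UMIs of the members (interval 94.3 to 94.7%) and Krt7 5.49%. In B cells Krt8 made up 52.4% (52.2 to 52.7%) and Krt7 47.6%. The type I side kept nearly the same shares: Krt18 was 63.6% of it in A (63.2 to 63.95%) and 64.6% in B (64.4 to 64.8%), and Krt19 was 36.3 and 33.9%. Krt14 was 0.108% of type I UMIs in A and 1.49% in B.

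Type I UMIs exceeded type II UMIs in both groups, by 1.75-fold in A (1.73 to 1.77) and 1.64-fold in B (1.63 to 1.65). Type I members summed to 1703 and 4673 CPM and type II members to 972 and 2856 CPM. The ratio of Krt18 to Krt8 alone moved much more, from 1.18 in A to 2.02 in B. Per-gene levels thus differed more than the balance of the 2 types did.

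**Figure D3:**
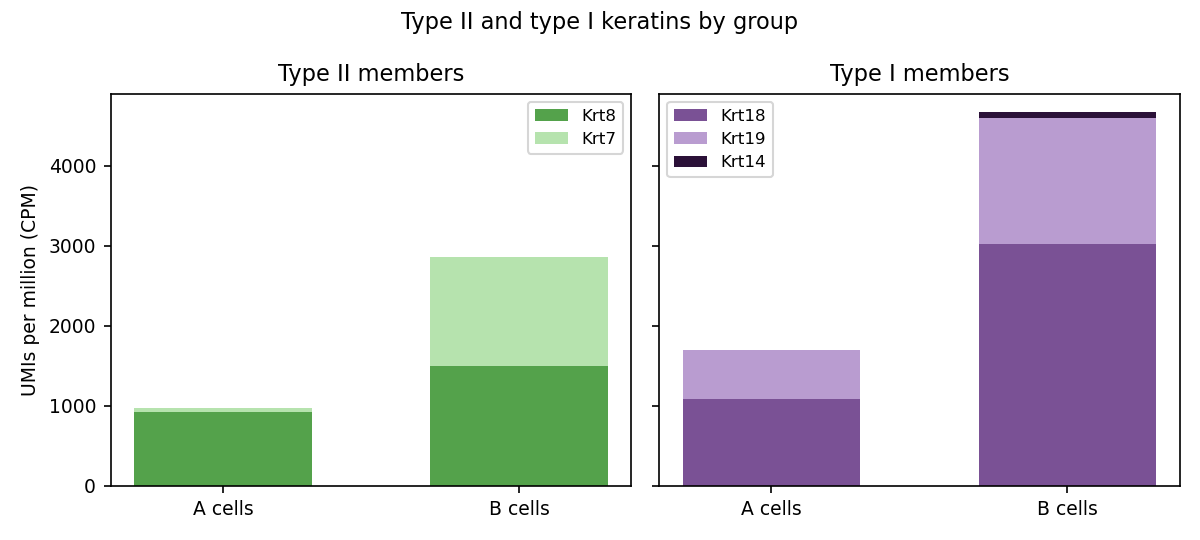
Summed level of the type II members (left) and the type I members (right) in A and B cells, in CPM, with each gene as a layer of the bar. Krt7 takes 5.49% of the type II bar in A and 47.6% in B, whereas Krt18 takes 63.6 and 64.6% of the type I bars.

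The 5 members held most keratin transcripts of these cells, 94.7% of all keratin UMIs in A and 95.97% in B. Keratins as a whole took 0.283% of all UMIs in A and 0.784% in B. Of the 48 other keratin genes, 4 reached 10 CPM in a group, 24 had fewer and 20 had no UMI. Krt23 (type I) had 83.2 and 128 CPM in A and B, and Krt20, a type I keratin of intestinal epithelium, 42.5 and 112 CPM. Krt80 (type II) had 5.81 and 43.7 CPM, and Krt10, a type I keratin of upper epidermal layers, 8.94 and 25.1 CPM. These 4 were 1.54 to 7.51 times as high in B, and Krt80 and Krt10 reached 10 CPM only there. Krt13, a type I keratin of mucosal epithelium just below 10 CPM, was 1.74 times as high in A (8.64 and 4.96 CPM).

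Krt14 was measured without its usual companions of basal epithelium. Krt5, the type II partner of Krt14, had 0 UMIs in both groups. As a one-sided limit a count of 0 allows up to 3 UMIs, or 0.0745 CPM in A and 0.0568 CPM in B, and the upper ends of the two-sided exact intervals were 0.0916 and 0.0699 CPM. Krt15 had 3 UMIs in each group, and Krt17 had 0 and 1. Trp63, the transcription factor that defines basal cells, had 1.99 CPM in A and 0.322 CPM in B, and so was lower in the group with more Krt14. Of 5 basal keratinocyte markers only Itgb4, an integrin of hemidesmosomes, passed 50 CPM, with 2.46 CPM in A and 52.9 CPM in B. Krt6a and Krt6b, keratins of stressed epidermis, had 0 UMIs, and Krt16 had 0 and 25.

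The labelled ductal cancer identity was checked on 11 epithelial and ductal genes, of which 4 are the simple keratins themselves and bear on no check of them. Of the other 7, 3 reached 50 CPM, Muc1 and Cdh1 only in B. Muc1, a membrane mucin, had 32.8 and 308 CPM in A and B, and Cdh1, the epithelial cadherin, 31.5 and 116 CPM. Epcam, an epithelial adhesion protein, was lower in B (31.8 and 3.16 CPM), as was Spint2, an epithelial protease inhibitor (239 and 178 CPM). Cldn7 had 44 UMIs in A and 0 in B, Sox9, a ductal factor, had 1.91 and 5.68 CPM, and Cldn4 was below 1 CPM in both. The summed markers of other cell types were low: 13.7 and 4.40 CPM for acinar genes, 2.11 and 0.929 CPM for fibroblasts, 1.56 and 0.777 CPM for immune cells, 4.37 and 0.947 CPM for endothelium, 0.497 and 3.30 CPM for erythroid cells, and 0.0993 and 0.0758 CPM for endocrine cells. Of these lists, 4 of 7 acinar genes had 0 UMIs (the factor Ptf1a among them), 3 of 6 endocrine, 3 of 7 fibroblast (Dcn among them), 2 of 5 endothelial (Kdr among them) and 2 of 4 erythroid genes, and 0 of 7 immune genes.

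Genes whose products tie keratin filaments to junctions were followed next. Of 16 such genes 15 had a UMI in both groups, and of these 10 were at least 2-fold higher in B and 0 in A, where 13.4 and 17.9% of all 18668 genes with a UMI in both groups were. Of the 7 that reached 50 CPM in a group, 4 did so only in B, and so had to differ in that direction. Dsp (desmoplakin, which anchors keratins at desmosomes) had 4.57 and 136 CPM in A and B. Plec (plectin, a cytoskeletal linker) had 86.9 and 325 CPM. Itga6, the partner of Itgb4, had 81.8 and 177 CPM, whereas Dst (dystonin) had 181 and 299.7 CPM and was under 2-fold. Pkp2 (plakophilin 2, a desmosomal protein) had 35.6 and 31.6 CPM.

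Other intermediate filament genes did not all follow the keratins. Vim (vimentin, the mesenchymal filament) was expressed beside the keratins in both groups, at 1375 and 1972 CPM, and Lmna (lamin A/C) had 436 and 1163 CPM. Lmnb1 (lamin B1) had 97.9 and 160 CPM, under 2-fold. Of the 4 genes of this list that reached 50 CPM, Nes (nestin) was the one at least 2-fold higher in A, with 95.3 and 38.5 CPM. Des (desmin, the muscle filament), with 11 UMIs in A and 4 in B, was below that limit. Of 22 epithelial and keratin-gene regulators 20 had a UMI in both groups, 4 of these being at least 2-fold higher in B and 6 in A, beside 13.4 and 17.9% of all such genes. The 3 that reached 50 CPM were Klf4, Klf5 and Zeb1, Klf4 only through B. Klf4 had 20.3 and 80.95 CPM, Klf5 122 and 93.4 CPM, and Zeb1, a repressor of epithelial genes, 124.5 and 76.9 CPM. Below that limit, Foxa2 and Elf3 (epithelial factors) had 37.6 and 42.1 CPM, and 24.7 and 28.5 CPM, Grhl1 and Foxa1 were higher in B at 1.56 and 5.44 CPM, and 1.94 and 5.08 CPM. Among those higher in A, Ehf (an epithelial ETS factor) had 46.9 and 1.35 CPM, Twist1 (a mesenchymal factor) 26.8 and 0.853 CPM, Zeb2 27.5 and 8.66 CPM, and Snai2 23.3 and 8.07 CPM. Of 10 cornified and squamous genes 9 had a UMI in both groups, 7 of them at least 2-fold higher in B and 1 in A, beside the same 13.4 and 17.9%. Sprr1a had 17.1 and 122 CPM and Perp 20.01 and 90.03 CPM, both past 50 CPM only in B, and Sprr2a3 was higher in A, with 6.31 and 0.493 CPM.

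Cells of a group also differed among themselves. The variance over the mean of thinned counts, which is 1 for pure counting error, was 2.14 for Krt8, 2.64 for Krt18 and 1.90 for Krt19 in A cells. In B cells it was 1.68, 1.73 and 2.25, with 1.52 for Krt7. Relative to the mean, the spread beyond counting was wider in A: 0.6497 for Krt8, 0.722 for Krt18 and 0.705 for Krt19, against 0.388, 0.283 and 0.513 in B. Leaving out Scrublet's barcodes gave 0.655, 0.726 and 0.701 in A. Krt18 was thus the most uneven of these 3 genes in A and the most even in B. Krt14 in B had a value of 1.87, the widest there.

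Co-expression was then read across thinned cells, as Pearson's r of log(1 + UMIs), which describes cells that share library, depth and free RNA. All 10 pairs had a positive r in both groups, and the median r was 0.0964 in A and 0.213 in B. Few counts per cell keep r near 0, and Krt7 and Krt14 had means of 0.133 and 0.00486 UMIs in A, so these medians are not comparable. For Krt8 with Krt18, Krt8 with Krt19 and Krt18 with Krt19, r was 0.259, 0.227 and 0.131 in A. In B it was 0.249, 0.298 and 0.199. In B the 6 pairs of simple keratins lay between 0.199 and 0.298. Krt8 went most closely with Krt19 (0.298) and then with Krt18 (0.249). The 4 pairs with Krt14, whose mean in B was only 0.202 UMIs, were lower, from 0.0847 with Krt7 to 0.155 with Krt19. In A the highest r was that of Krt8 with Krt18 (0.259), followed by Krt8 with Krt19 (0.227), whereas Krt18 with Krt19 had 0.131. Krt14 in A had at most 0.0309 with Krt8, Krt18 and Krt19, and in cells of 4000 to 6000 UMIs its r went from 0.0138 to -0.0108 with Krt8 and from 0.0261 to -0.00023 with Krt18.

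**Figure D4:**
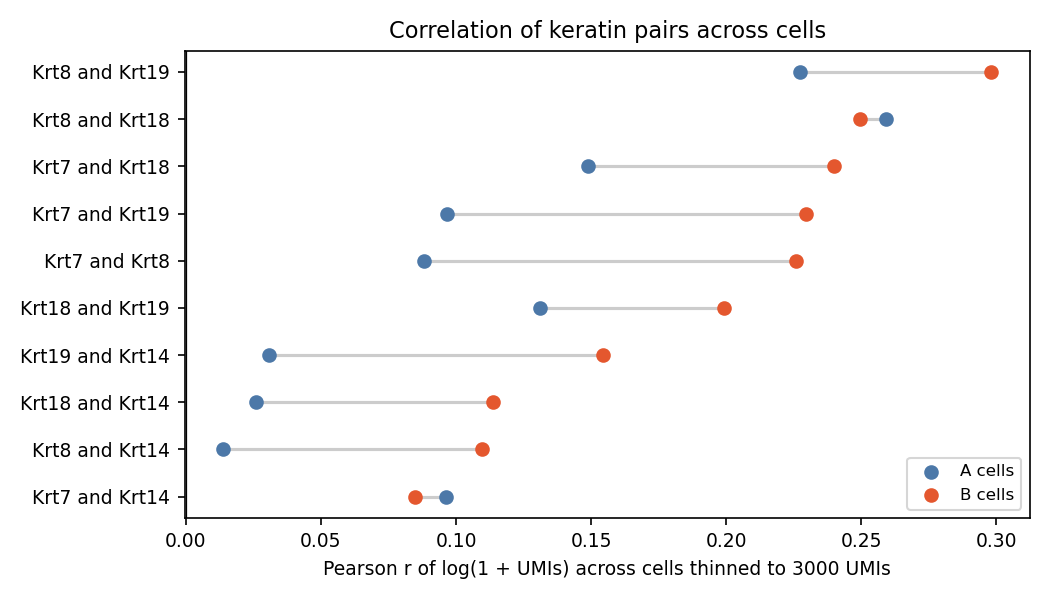
Pearson r of each keratin pair across cells thinned to 3000 UMIs (x axis), with 7406 A cells in blue and 8827 B cells in orange. Pairs of simple keratins are at 0.199 or above in B, pairs with Krt14 are at 0.155 or below, and Krt8 with Krt18 is the highest pair in A.

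Joint detection was set beside the product of the single shares. In B cells, and for Krt8 with Krt18 in A, it lay close to that product. Where a gene is found in most cells, the joint share can hardly differ from the product, so this closeness does not show that genes varied independently. All 4 simple keratins were seen together in 90.1% of thinned B cells and in 7.18% of A cells. Krt8, Krt18 and Krt19 were commonly joined in A: Krt8 and Krt18 were both found in 79.7% of A cells, against 79.2% from the product of their shares. Cells with none of the 4 were 34 in A and 1 in B. Krt14 with Krt7 in the same B cell was seen in 14.7%, against a product of 14.4%. In A that pair was seen in 12 cells, or 0.162%, against a product of 0.0461%. Its r of 0.0962 there fell to 0.0491 without Scrublet's barcodes and to 0.0147 in cells of 4000 to 6000 UMIs.

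Up to 5 Krt14 UMIs, B cells with more Krt14 also had more of each simple keratin. Over B cells with 0, 1 to 2, and 3 to 5 Krt14 UMIs after thinning (7504, 1244 and 69 cells), Krt19 had 1509, 1897 and 2589 CPM. Krt8 had 1463, 1728 and 2097 CPM, Krt18 2971, 3319.9 and 3971 CPM, and Krt7 1354, 1527 and 1942 CPM. The counting intervals of neighbouring classes did not overlap for any of the 4 genes, and the spread between cells is wider than these intervals. Median depth before thinning was 5422.5, 5737 and 5375 UMIs, and the median mitochondrial share 1.89, 1.90 and 1.91%. Only 10 cells had 6 or more Krt14 UMIs, too few to read. In them Krt7 had 1567 CPM (1151 to 2083), less than in the class of 3 to 5. Krt8, Krt18 and Krt19 had 2567, 4333 and 4667 CPM, more than in that class.

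Among the other genes followed over these classes, Sprr1a, a precursor of the cornified envelope, had 102, 155 and 343 CPM. Dsp had 133, 166 and 159 CPM, Krt20 109.6, 131 and 174 CPM, and Vim 1984, 2114 and 2145 CPM. Perp, with 91.9, 97.3 and 77.3 CPM, did not follow, and the intervals of the last 2 classes overlapped for Dsp, Krt20, Vim and Perp. The other basal keratins stayed at or near 0 CPM in every class. The call of phase G1 was made in 14.1, 15.6 and 33.3% of the cells of the 3 classes, where the last rests on 69 cells.

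**Figure D5:**
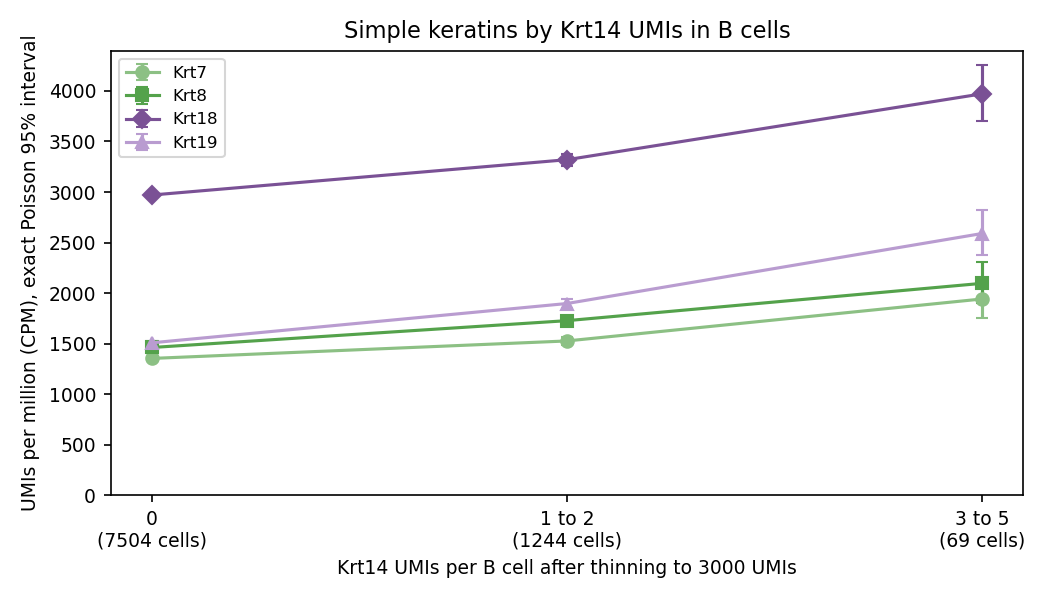
Level of the 4 simple keratins (CPM, y axis, exact 95% Poisson intervals) in B cells with 0, 1 to 2 and 3 to 5 Krt14 UMIs after thinning to 3000 UMIs (x axis). Krt19 goes from 1509 to 2589 CPM, and the other 3 genes are higher in each class than in the one before.

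The genes whose pattern was most like each keratin were named by the highest r among genes that reached 50 CPM in the group, 3263 in B and 3512 in A (3513 for Krt14). In B the top 3 genes for Krt7, for Krt8 and for Krt18 were the other simple keratins in each case. For Krt19 the leading gene was Lgals2 (0.319), a galectin, ahead of Krt8 (0.298), Lgals4 (0.275) and Crip1 (0.264), with the 99th percentile of all genes at 0.098. Krt14 had Krt19 (0.155), Crip1 (0.143) and Krt18 (0.114) at its head. The lowest r of the 5 members was -0.166, for Krt8 with Rpl6, a ribosomal-protein gene, and the lowest genes of the other members were Rplp0, Rpl21, Rpl6, Hmgb1 and, for Krt7, Sema3a (-0.0992).

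In A, Krt18 shared 1 of its 5 leading genes, Krt8, with B. It was led by Tm4sf1 (0.271), a membrane protein, then Krt8 (0.259), Acta2 (0.238, smooth-muscle actin) and Tpm1 (0.206, tropomyosin), and its lowest gene was Fabp5 (-0.214), a fatty-acid binding protein. Krt19 was led by Krt8 (0.227), S100a6 (0.207), Lgals4 (0.196), Crip1 (0.185) and Lgals2 (0.176), 4 of which are also among its 5 leading genes in B. Krt8 was led by Krt18 and Krt19 in both groups. In A, Krt7 was led by Lgals2 (0.181), and Krt14 by Krt7 (0.0962). The A levels of Krt7 and Krt14 lay within the range read for markers of the opposite group. Lgals2 had 204 CPM in A and 2768 CPM in B.

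These genes were picked for their r in the same cells, so their levels over classes of the keratin only describe the size of the relation. Over A cells with 0 to 1, 2 to 3, 4 to 6 and at least 7 Krt18 UMIs after thinning, Acta2 had 60.97, 104, 170.4 and 454 CPM, Tm4sf1 had 977, 1191, 1499 and 1880.04 CPM, and Fabp5 had 1648, 1348, 1014 and 805 CPM. Krt8 went from 703 to 1679 CPM and Krt19 from 518 to 822 CPM. Lgals4, which went with Krt19, had 559 CPM in the lowest class and 479 CPM in the highest. Krt7 went from 24.7 to 126 CPM over these classes, while the share marked by Scrublet went from 0.412 to 6.12%. The part of mixed barcodes was not tested. In B cells with 0 to 2, 3 to 5, 6 to 9 and at least 10 Krt19 UMIs, Lgals2 had 2202, 2697, 3251 and 3985 CPM, Gsta4 had 94.3, 143, 219 and 407 CPM, and Krt14 had 36.8, 57.3, 88.8 and 150.4 CPM. Scrublet's share there fell from 2.86 to 0.575%. These classes were chosen after the correlations were seen.

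Depth and mitochondrial share differ between the groups, and each was held within bounds. In 4 bins of depth, from 2000 to under 4000 UMIs up to 8000 or more, the log2 ratio of B over A was 0.76, 0.73, 0.66 and 0.57 for Krt8, 1.67, 1.57, 1.40 and 1.17 for Krt18, and 1.34, 1.43, 1.35 and 1.18 for Krt19. For Krt7 it was 5.46, 5.26, 4.37 and 3.49, as the A level went from 30.7 to 105 CPM. For Krt14 it was 4.91, 6.00, 5.45 and 3.95. All 5 were thus higher in B in each bin, with the smallest ratios in the deepest cells. A mitochondrial share of 2 to under 4% was found in 83.8% of A cells and 38.3% of B cells. Among these the 5 ratios were 4.66 for Krt7, 0.72 for Krt8, 1.44 for Krt18, 1.43 for Krt19 and 5.28 for Krt14. From 4 to 15%, with 1048 A cells and only 33 B cells, they were 4.76, 0.30, 1.38, 0.81 and 4.99 in the same order, so Krt19 fell below 2-fold there and 3 members passed.

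A mitochondrial share under 2% was found in 61.4% of B cells but in only 2.84% of A cells. The 222 A cells of that share stood apart. They had 1458 CPM of Krt8 and 1912 CPM of Krt18, so the log2 ratio to B cells of that share was 0.048 for Krt8, 0.68 for Krt18, 1.05 for Krt19 and 3.40 for Krt7, and 3 members rather than 4 passed 2-fold. Their Krt7 level was 130.1 CPM, against 53.1 CPM in A cells of 2 to under 4%. Scrublet marked 2.70% of them and 5.41% held a B-marker UMI, against 2.02 and 5.76% of those other cells. By scored cycle phase, Krt8 in A had 1255 CPM in G1, 932 CPM in S and 869 CPM in G2/M, and Krt19 had 930.3, 607 and 573 CPM. In B the same genes had 1693, 1476 and 1468 CPM, and 1977, 1509 and 1531 CPM. All 5 keratins were higher in B in each phase, and phase calls rest on a score with a threshold. G1, S and G2/M were called in 12.2, 21.6 and 66.2% of thinned A cells, and in 14.4, 18.7 and 66.8% of thinned B cells. The calls were not checked against another measure of the cycle.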

How the data were processed

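The authors deposited whole-number UMI counts per gene and barcode, not normalized, written by Cell Ranger 8.0.1 per the file headers, on GRCm39 per the submitters' processing notes. The annotation release and the cell-calling settings were not given in the sources used here. The library held 116505698 UMIs, from 500 to 23576 per barcode, which sets the width of the counting intervals.

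The cell filter kept barcodes of 2000 UMIs or more and 1000 genes or more whose mitochondrial share did not exceed 15% (python 3.11.15, scipy 1.17.1). Counts were summed over A and over B cells and scaled to CPM over all features. Intervals are exact Poisson for levels, conditional binomial for ratios and Clopper-Pearson for shares. Thinning drew 3000 UMIs per cell without replacement with 1 seed, and phases and doublets (expected rate 0.08) used scanpy 1.11.5. Scrublet marked 778 barcodes (3.64%), which the main values keep, 146 of them in A and 208 in B. The assignment rule keeps cells with some UMIs of the opposite markers, so mixed barcodes can remain in both groups.

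The members and gene lists were chosen with earlier results of these data known. Named genes were all members, the other keratins with at least 10 CPM, up to 4 genes of each list with at least 50 CPM by UMIs, and the genes with the 5 highest and 2 lowest r per member. Others (Krt5, Krt6a, Krt6b, Krt15, Krt16, Krt17, Trp63, Itgb4, Krt13, Pkp2, Des, Foxa1, Foxa2, Elf3, Grhl1, Ehf, Twist1, Zeb2, Snai2, Sprr2a3, Epcam, Muc1, Cdh1, Spint2, Cldn4, Cldn7, Sox9, Ptf1a, Dcn, Kdr) were named after their values were seen. Steps were tested on simulated data. Alternatives were other cell filters, assignments, scalings, depths, minimums and measures of correlation.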

Additional observations from a re-analysis of the deposited data

Results flagged for a closer look

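Barcodes that failed the cell filter entered no comparison, and they were looked at because they still held keratin UMIs above what a count of 0 allows. The 817 barcodes, with a median of 1087 UMIs and a median mitochondrial share of 11.1%, had 2318 UMIs of the 5 members, or 2466 CPM. Their Krt7 level was 291 CPM, Krt18 953 CPM, Krt8 716 CPM, Krt19 493 CPM and Krt14 12.8 CPM. These barcodes carry no group, and no cause was tested.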

How the results depend on the processing

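The 55 keratin ratios computed under 11 alternatives were all above 0, and 22 of them stayed within their counting interval. The other 33 moved, and where no cause is named the cause was not tested. On the log2 scale of B over A, the strict cell filter, which kept 3312 A cells and 5535 B cells, gave 4.26 for Krt7, 0.64 for Krt8, 1.37 for Krt18, 1.31 for Krt19 and 4.91 for Krt14. The strict assignment gave 5.18 for Krt7, 1.58 for Krt18 and 5.98 for Krt14. Without Scrublet's barcodes the values were 5.14 for Krt7, 1.52 for Krt18, 1.40 for Krt19 and 6.07 for Krt14. The depth band of 4000 to 6000 UMIs gave 5.26 for Krt7, 0.73 for Krt8, 1.57 for Krt18, 1.43 for Krt19 and 6.00 for Krt14. Scaling by the median ratio, which moves every gene by 0.06, gave 0.77 for Krt8, 1.54 for Krt18 and 1.42 for Krt19. Averaging over cells gave 4.92 for Krt7, 0.73 for Krt8 and 1.54 for Krt18. Cells with no UMI of the opposite markers gave 5.06 for Krt7, 1.52 for Krt18, 1.39 for Krt19 and 5.94 for Krt14, those with a mitochondrial share of 2 to under 4% gave 1.44 for Krt18 and 1.43 for Krt19, and those under 2% gave 3.40 for Krt7, 0.048 for Krt8, 0.68 for Krt18 and 1.05 for Krt19. For Krt8 under 2% the A level of 1458 CPM (1389 to 1529) overlapped the B level of 1507 CPM, so no direction beyond counting error was seen there. These last 3 settings were chosen after seeing the data. The loose filter and the removal of mitochondrial and ribosomal-protein genes moved none. The share of genes past 2-fold was 13.4% in B and 17.9% in A with no minimum level, by a filter that admits genes of few counts. The 20 shares of cells with a UMI all moved with thinning depth, and their order between groups held in all 10 comparisons. No paired analysis was possible because there is 1 library and neither group has replicates, so none of these settings measures the spread between cultures.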

Other observations

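The barcodes that passed the filter but belonged to neither group had keratin levels between those of A and B. The 464 with at least 2 marker UMIs of both groups and no 3-fold excess had a median of 8490.5 UMIs. Their Krt7 level was 781 CPM, Krt18 2173 CPM, Krt8 1278 CPM, Krt19 1178 CPM and Krt14 36.1 CPM. The other 4145, with fewer than 2 marker UMIs of one group or of both, had a median of 4166 UMIs, and their levels were 486 CPM for Krt7, 1791 CPM for Krt18, 1110.4 CPM for Krt8, 935 CPM for Krt19 and 16.4 CPM for Krt14.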
